A study of Mus musculus with 12 samples.

Results

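The interferon-induced genes Ifit1, Ifit2, Ifit3, Isg15, Mx1, Oas1a, Oasl2, Rsad2, Irf7 and Usp18 were followed through RNA of sorted gut ILC3s (group 3 innate lymphoid cells). They were taken by name, 10 of the 23284 genes in the table, and all 10 have a row there. The mice were HR-1 hairless mice aged 18 weeks, raised by mothers fed either a diet with added palmitic acid during lactation (PA milk) or normal diet (ND). Cells came from the IEL (intraepithelial layer) and the LP (lamina propria) of the small intestine, which gave 4 groups, PA IEL, ND IEL, PA LP and ND LP, of 3 libraries each. According to the study's methods the sort kept lineage-negative cells positive for CD4, Thy1.2, CD25 and Nrp1 (elsewhere the study gives CD45 in place of CD4, and which of them applied is not settled here), and libraries were amplified with a kit for very low RNA input. According to the study, PA milk offspring were born to ND mothers and swapped after birth to mothers on the palmitic acid diet, which the pups could not reach. No such swap is described for the ND arm, so fostering and milk diet cannot be told apart. Food was returned to normal diet at weaning, while the ND arm received that diet throughout. No label gives the number of mice behind a library. Nothing in the sources says that replicates came from separate animals, so p-values measure the spread between these libraries only.

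Type I interferons are secreted on detection of foreign or misplaced nucleic acid and bind the receptor of Ifnar1 and Ifnar2, which signals through the kinases Jak1 and Tyk2. Signalling through a complex that holds Stat2 and Irf9 reaches the nucleus, where the complex binds the interferon-stimulated response element, a short repeat in the promoters of many antiviral genes. Proteins made from those genes restrict viruses in the cell (Ifit, Mx, Oas and viperin), tag proteins (Isg15), raise further interferon production (Irf7) or dampen the signal (Usp18). In the gut this response is known from viral infection and, at a lower level, as a tonic state that depends on the microbiota.

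The response element is shown first because it is what several of these genes have in common outside the expression values. Promoter windows of RefSeq (GRCm38.p6; 250 bases before to 50 bases after a start site) were present for 8 of the 10 genes, all except Mx1 and Usp18. The core of the element, GAAANNGAAA, searched on both strands with overlapping matches counted, occurred in windows of 5 of these 8 genes and in 3.443% of 32851 windows of the table. The stretches that hold it are printed 5′ to 3′ along the gene's own strand, each with up to 30 bases on either side and ending before the start site, with the matched letters in capitals.
Ifit1 (chr19:34640755-34640843, plus strand): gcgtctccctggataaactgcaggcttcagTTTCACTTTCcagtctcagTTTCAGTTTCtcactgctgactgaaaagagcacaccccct
Ifit3 (chr19:34583343-34583446, plus strand): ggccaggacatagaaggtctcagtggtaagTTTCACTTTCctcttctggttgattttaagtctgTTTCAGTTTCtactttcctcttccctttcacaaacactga
Isg15 (chr4:156200845-156200926, minus strand): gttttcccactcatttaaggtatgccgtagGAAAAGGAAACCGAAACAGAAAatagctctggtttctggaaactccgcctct
Oas1a (chr5:120907526-120907575, minus strand): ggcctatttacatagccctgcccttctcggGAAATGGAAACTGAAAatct
Rsad2 (chr12:26456533-26456602, minus strand): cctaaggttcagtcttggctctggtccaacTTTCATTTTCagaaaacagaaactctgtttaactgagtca

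Ifit1 and Ifit3 each held 2 separate matches on the opposite strand. Isg15 held 3 overlapping matches, the first beginning 78 bases before the start site, and Oas1a held 2 overlapping matches within 20 bases of its start. Rsad2 held 1 match, 120 bases before the start. The longer form of the element, AGTTTCNNTTTC, occurred in 3 of the 8 genes (Ifit1, Ifit3 and Oas1a) and in 0.271% of all windows. A different interferon element, the gamma-activated sequence TTCNNNGAA, occurred in 2 of the 8 (Ifit2 and Oas1a), beside 8.298% of all windows. Among 41 other interferon-stimulated genes with a window, 19 held the core. These are letter matches in a 300 base window, and a window without a match says nothing about binding elsewhere.

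**Figure D1:**
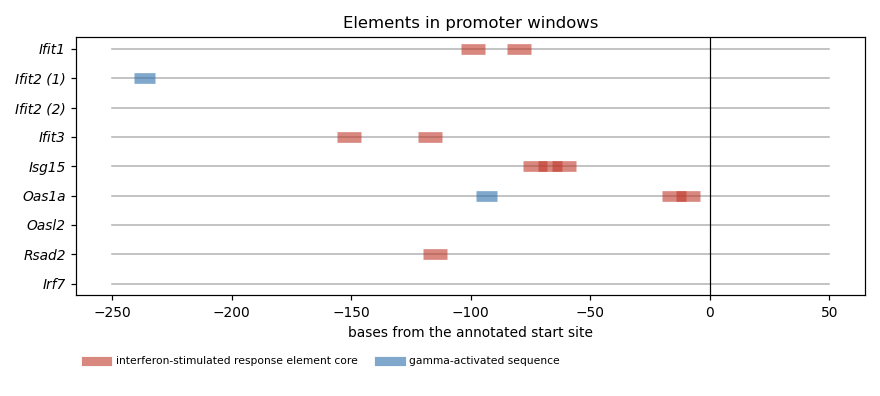
Matches to the interferon-stimulated response element core (red) and to the gamma-activated sequence (blue) in promoter windows of 8 genes, by distance in bases from the annotated start site (vertical line); Ifit2 has 2 windows and darker red marks overlapping matches. Matches to the core lie between 156 and 5 bases before the start in Ifit1, Ifit3, Isg15, Oas1a and Rsad2.

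The 3 Ifit genes lie in 1 block on chromosome 19 that spans 99.316 kb (Ifit2 at 34550694-34576419, Ifit3 at 34583531-34588731 and Ifit1 at 34640871-34650009, GENCODE vM21 on GRCm38). Isg15 lies at chr4:156199424-156200818, Rsad2 at chr12:26442746-26456452, Irf7 at chr7:141262706-141266481 and Mx1 at chr16:97447035-97462907. Oas1a (chr5:120896256-120907521) and Oasl2 (chr5:114896936-114912234) share a chromosome, and Usp18 lies at chr6:121245906-121270917. All are protein-coding genes.

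Levels are given as FPKM, the authors' fragments per kilobase of transcript scaled to the size of the library, which is per length and so allows genes to be set side by side. Libraries held 8.82 to 14.5 M reads, and 3 reads of these genes correspond to 0.0514 to 0.556 FPKM, a floor that covers counting error only. The number of genes with at least 1 FPKM ranged from 8406 to 11378 in 9 libraries but was 7863 in ND IEL replicate 2, 5637 in PA LP replicate 2 and 4390 in PA IEL replicate 2. In replicate 2 of PA milk, 8 of the 10 interferon-induced genes were listed at 0 in PA LP and 6 of 10 in PA IEL. Of all 23284 genes, 15298 were listed at 0 in that PA LP library and 16327 in that PA IEL library. None of 12 housekeeping genes was at 0 in any library, and 1 of them, Tbp, was under 1 FPKM in PA LP replicate 2. The labelled cell type was not clear in every library: Thy1, a marker of the sort, was listed at 0 in 5 of 12 libraries and Il23r, a cytokine receptor of ILC3s, was under 1 FPKM in 5, whereas Id2, a transcription factor of all innate lymphoid cells, was above 1 in all 12. In bulk RNA, fewer expressing cells and less RNA per cell cannot be told apart. Results that rest on replicate 2 of PA milk are therefore given with and without it.

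Isg15, a ubiquitin-like protein that is attached to other proteins, was among the most abundant of the 10. Its level was 28.7, 0 and 56.0 FPKM for PA IEL replicates 1 to 3 (the order used throughout), 27.6, 132 and 19.7 for ND IEL, 552, 0 and 256 for PA LP, and 101, 208 and 68.3 for ND LP. The 2 highest values of all 12 libraries thus lay in PA LP, as did a library listed at 0, in which no read of the gene was counted against 3866 reads in replicate 1.

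The Ifit genes encode proteins that bind viral RNA and block its translation. Ifit1 stood at 0, 0.0599 and 15.7 FPKM under PA milk in IEL, where the ND libraries gave 1.11, 16.3 and 6.38. Its LP levels were 77.2, 0 and 82.5 under PA milk, with 47.9, 45.3 and 0 for ND. Ifit2 was listed at 0 in all 3 PA IEL libraries and at 3.11, 0 and 5.62 in ND IEL, while LP gave 14.4, 0 and 65.4 under PA milk, with 98.2, 10.9 and 0 for ND. Both genes were either absent from an LP library or at 10 FPKM or more. Ifit3 was above 1 FPKM in 1 of 6 IEL libraries (6.13 in PA IEL replicate 3) and in 5 of 6 LP libraries, namely 29.3, 0 and 7.05 under PA milk beside 5.80, 3.31 and 1.29 for ND. Ifit3b, a close copy of Ifit3, and Ifit1bl1, a relative of Ifit1, have no row here, so how reads shared with them were counted is not known.

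Rsad2 encodes viperin, an enzyme that makes a chain-terminating nucleotide against viral polymerases. Its PA LP libraries lay apart from the rest, at 57.5, 30.9 and 6.16 FPKM, while those of ND LP stood at 0, 3.35 and 0.0807. In IEL its PA milk libraries gave 0.0572, 0 and 0 and its ND libraries 1.06, 0.0872 and 0.0181, and 5 of the 6 IEL libraries held 4 reads or fewer. All 3 PA LP libraries lay above the other 9. This includes PA LP replicate 2, in which Rsad2 (1205 reads) and Irf7 were the only ones of the 10 above 0. The share of all genes with such a separation was not computed, so that of Rsad2 is a description only.

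The oligoadenylate synthetase Oas1a makes the messenger that activates RNase L, and Oasl2 is a relative from the same family. Oas1a gave 4.38, 0 and 7.66 FPKM for PA IEL, 11.3, 10.6 and 24.3 for ND IEL, 21.2, 0 and 11.9 for PA LP, and 6.95, 3.85 and 10.1 for ND LP. The PA IEL and ND IEL values of Oas1a did not overlap, with PA milk lower, and in LP replicates 1 and 3 of PA milk were above all ND libraries. Its close copy Oas1g was listed at 27.4 FPKM in PA LP replicate 2, where Oas1a was at 0, and at 0 or 0.72 in the other 5 LP libraries, so reads of the pair may have been divided unevenly and both values are uncertain. Oasl2 gave 13.7, 0.0248 and 13.4 FPKM for PA IEL, 10.4, 67.4 and 7.96 for ND IEL, 56.8, 0 and 47.0 for PA LP, and 4.46, 25.8 and 5.06 for ND LP. The higher levels of Oasl2 again fell in single libraries, ND IEL replicate 2 and PA LP replicates 1 and 3. Mx1, a GTPase that blocks influenza viruses, was at 0 in 10 libraries and at 3.27 FPKM in ND IEL replicate 1 (132 reads) and 4.78 in ND LP replicate 3 (125 reads). Mx1 therefore failed the filter on low values, 1 FPKM or more in 3 libraries or more, and only the other 9 genes were tested.

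Only Irf7 of the 10 was above 0 in all 12 libraries. Irf7, the transcription factor that amplifies interferon production, averaged 60.3 ± 54.5 FPKM (SD, n = 3) in PA IEL, 143 ± 87.8 in ND IEL, 98.6 ± 36.9 in PA LP and 75.9 ± 50.6 in ND LP. Its single values were 74.6, 0.0467 and 106 for PA IEL, 63.8, 237 and 127 for ND IEL, 126, 56.8 and 113 for PA LP, and 55.0, 134 and 39.2 for ND LP. It was the only one of the 10 above 10 FPKM in 11 libraries, and the exception was PA IEL replicate 2 with 1 read. Usp18, the protease that removes Isg15 and also quiets the interferon receptor, was highest in that same library: 18.7, 134 and 11.8 for PA IEL, 7.49, 24.9 and 12.1 for ND IEL, 66.3, 0 and 23.9 for PA LP, and 16.3, 51.3 and 0 for ND LP.

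**Figure D2:**
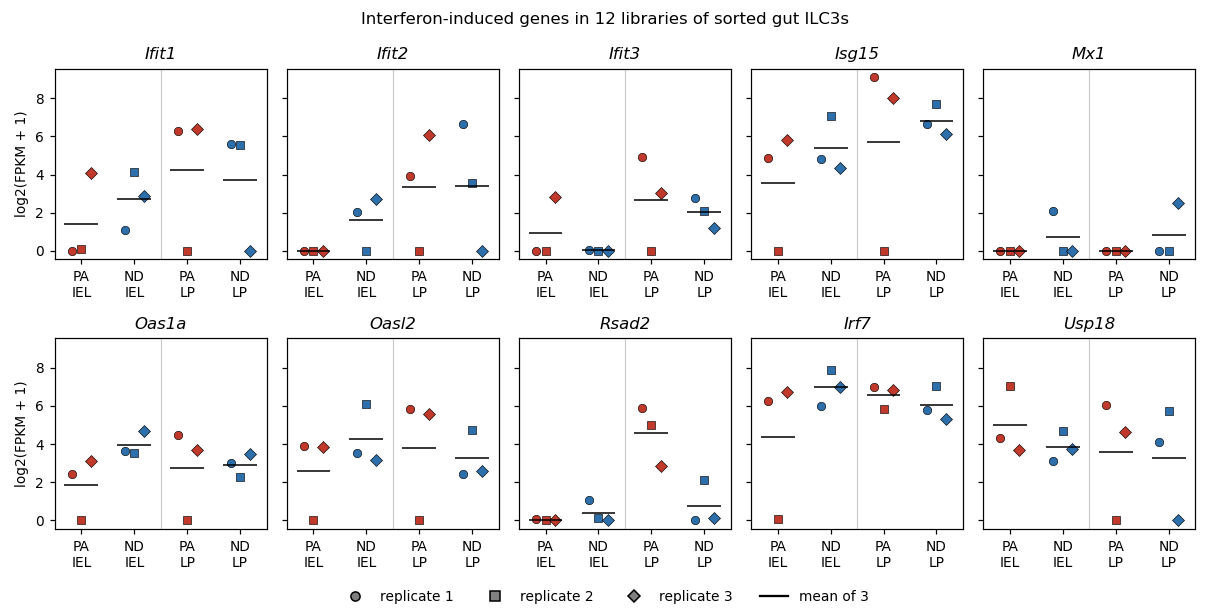
Level of each of the 10 genes as log2(FPKM + 1) in the 12 libraries, by group (red PA milk, blue ND; symbols mark the replicate number, lines the mean of 3). Squares of PA milk lie at or near 0 for most genes in both layers, and all 3 Rsad2 points of PA LP, 6.16 to 57.5 FPKM, lie above its other 9 libraries.

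By median FPKM, PA LP ranked highest of the 4 groups for 8 of the 10 genes, with Irf7 (ND IEL highest) and Mx1 (all medians at 0) as the exceptions. Of 27 pairs of neighbouring groups in this order, all but 4 overlapped: PA LP lay above ND IEL for Rsad2, ND IEL above ND LP for Oas1a, ND LP above PA IEL for Isg15, and ND LP above ND IEL for Ifit3. The pairs were set by these same medians. The share over all genes was computed neither for such pairs nor for the rank of PA LP. The 8 genes and the 4 pairs are therefore a description only. PA LP replicate 1 was the highest LP library for 6 of the 10 genes and ND IEL replicate 2 the highest IEL library for 4. The mean log2(FPKM + 1) over the 10 genes was 5.35 in PA LP replicate 1 and 4.70 in replicate 3, against 3.70, 4.08 and 2.14 in ND LP, and it was 1.08 in PA LP replicate 2. The IEL means were 2.18, 0.73 and 3.01 under PA milk, beside 2.74, 3.35 and 2.86 for ND. The spread between libraries of 1 group was thus as wide as the distance between groups.

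**Figure D3:**
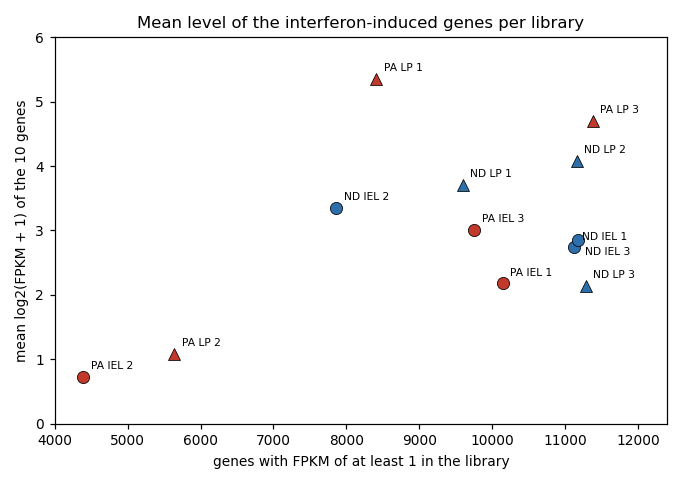
Mean log2(FPKM + 1) of the 10 genes against the number of genes with at least 1 FPKM, 1 point per library (circles IEL, triangles LP; red PA milk, blue ND). The libraries with the fewest genes, PA IEL 2 with 4390 and PA LP 2 with 5637, also have the lowest means, 0.73 and 1.08, while PA LP 1 has the highest, 5.35.

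The comparison of PA milk with ND asked whether early exposure to palmitic acid went with a different state of these cells. In LP, 6 of the 9 tested genes had a log2 fold change above 0 and 3 below, with a median of 0.49 where all 12502 tested genes had a median of -0.36 and 37.4% above 0. Rsad2 had the largest value, 3.82 (SE 0.97, 95% interval 1.75 to 5.89) on the log2(FPKM + 1) scale, and an adjusted p = 0.650 by limma with Benjamini-Hochberg adjustment (unadjusted p = 0.00125). Rsad2 reached 1 FPKM in 5 libraries, all 3 of PA LP among them, and so passed the filter only through the group where it was high. Its p-values, here and in the other comparisons, are therefore given as a description. None of the 9 passed an adjusted p of 0.05, nor did any gene of the table (0%), also by limma-voom on the scaled counts with sample quality weights. At an unadjusted p under 0.05 only Rsad2 remained, beside 4.7% of all genes. An exact permutation test of Rsad2 gave p = 0.1, the smallest that 3 libraries against 3 allow, and 2.97% of all genes likewise had all PA LP values above all ND LP values. Its log2 fold change stayed between 3.17 and 4.69 when each library was left out in turn, with adjusted p from 0.129 to 1 over all alternatives.

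The other genes in LP had values between -1.13 for Isg15 (SE 1.92, 95% interval -5.20 to 2.95) and 0.62 for Ifit3 (SE 1.18), with intervals that span 0. These values turned on PA LP replicate 2. Replicates 1 and 3 of PA LP both lay above every ND LP library for 6 of the 9 genes (Ifit1, Ifit3, Isg15, Oas1a, Oasl2 and Rsad2), which 11.7% of all tested genes also did. Without replicate 2 of PA milk in both layers, all 9 genes had a log2 fold change above 0 in LP, with a median of 1.94 against -0.05 for all genes. Removing a library in which 7 of the 9 were at 0 raises the PA milk mean by construction. Oasl2 was then at 2.46 (SE 0.998, unadjusted p = 0.0312) and Rsad2 at 3.61 (SE 1.02, unadjusted p = 0.00457), with adjusted p of 0.661 and 0.439 by limma, and again none of the 9 passed. The median turned to -0.52 without PA LP replicate 1 and to -0.34 without PA LP replicate 3, and to -0.06 with a pseudocount of 0.1 in place of 1, so the direction of the group as a whole in LP depended on single libraries and on how zeros entered.

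In IEL most values lay below 0, again short of the threshold. Of the 9 genes, 7 had a log2 fold change under 0 and 2 above (Ifit3 and Usp18), with a median of -1.59 where all genes had -0.30. Over all tested genes, 38.0% lay above 0. Irf7 had the lowest value, -2.62 (SE 1.33, 95% interval -5.44 to 0.20, adjusted p = 0.947 by limma), and without replicate 2 of PA milk in both layers it was -0.48. Oas1a was at -2.09 (SE 1.34, adjusted p = 0.947 by limma) with no overlap between the diets (exact permutation p = 0.1), a separation in this direction that 5.22% of all genes had. No gene in IEL passed the adjusted threshold (0%), also by that limma-voom fit, and 3.58% of all genes, but none of these 9, had an unadjusted p under 0.05. Without replicate 2 of PA milk the median moved to -0.39.

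**Figure D4:**
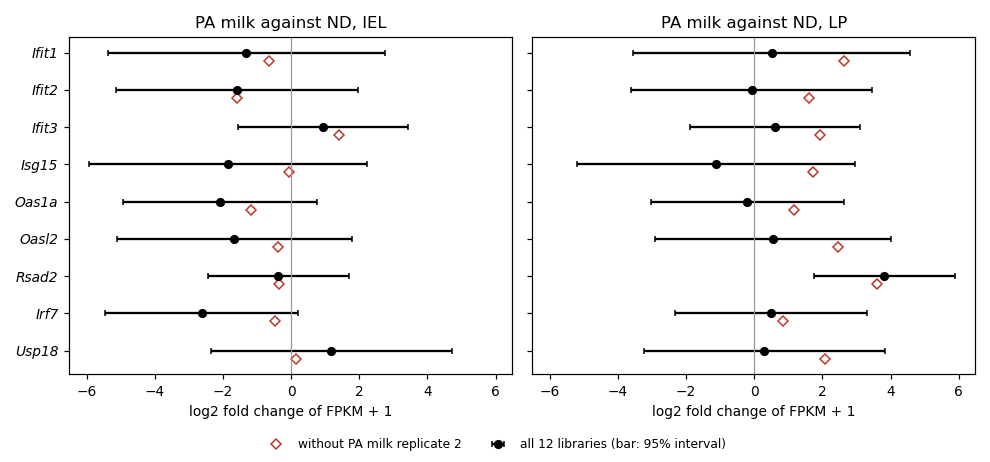
Log2 fold change of FPKM + 1, PA milk against ND, for the 9 tested genes in IEL and LP: black points with 95% intervals are from all 12 libraries, open red diamonds from a fit without PA milk replicate 2 in both layers. In LP only the interval of Rsad2, 1.75 to 5.89, lies clear of 0, and all 9 diamonds lie above 0; in IEL every interval spans 0.

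The difference of the diet effect between LP and IEL was tested directly. Rsad2 had a difference of 4.19 on the log2 scale (SE 1.38, 95% interval 1.27 to 7.12, unadjusted p = 0.00788, adjusted p = 1 by limma), and the second largest was 3.11 for Irf7 (SE 1.88). For 7 of the 9 genes the diet effect was higher in LP, with a median difference of 1.82 (all genes -0.03, 49.2% above 0). None passed, and 0% of all genes did. With replicate 2 of PA milk left out in both layers, all 9 lay above 0, with a median of 2.33, and again none passed. Ifit3 and Usp18 thereby changed sign.

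Between the layers, over both diets, 7 of the 9 genes had a value below 0 (lower in IEL), with a median log2 fold change of -1.77. All tested genes had a median of -0.08, with 46.6% above 0. Rsad2 was at -2.44 (SE 0.69, unadjusted p = 0.00274, adjusted p = 0.104), Ifit2 at -2.57 (SE 1.18, adjusted p = 0.357) and Ifit3 at -1.85 (SE 0.83, adjusted p = 0.349), all by limma. These genes reached 1 FPKM in 1, 2 and 1 of the 6 IEL libraries, in that order, and so passed the filter only through LP, where they were higher. Oas1a, Oasl2 and Irf7 had values from -0.65 to 0.08, and Usp18 was at 1.003 (SE 1.18). None of the 9 passed the adjusted threshold, which 0.88% of all genes (110) did. With replicate 2 of PA milk left out in both layers, 8 of the 9 lay below 0, with a median of -2.28. Isg15 passed without replicate 2 of PA milk in both layers (log2 fold change -2.30, adjusted p = 0.0322), and Rsad2 passed with libraries weighted by quality (-2.50, adjusted p = 0.0303), both by limma. Each was 1 of the 9 in its fit, where 826 and 982 of the 12502 tested genes passed. The summed FPKM of 13 epithelial markers also differed between the layers, 4148 to 83665 in IEL and 391 to 6560 in LP, with all 13 detected in at least 1 library of each group, and the part of such RNA in these values was not tested.

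Because plasmacytoid dendritic cells are strong interferon producers with high Irf7, a list of 7 of their markers was followed beside these genes. Its summed FPKM was 391 to 1502 in PA IEL, 608 to 1061 in ND IEL, 32.5 to 191 in PA LP and 247 to 1050 in ND LP, and none of the 7 was at 0 throughout a group. Siglech, a surface marker of these cells, was 0.14, 0.0833 and 18.7 in PA LP. In PA IEL replicate 2, where Irf7 was at 0.0467, the list was divided: Cox6a2 was at 687 FPKM, Siglech at 414, Lair1 at 37.6 and Klk1 at 33.8, whereas Tcf4 was at 0.01 and Pacsin1 and Ly6d were at 0. In PA LP replicates 1 and 2, Pacsin1 and Cox6a2 were at 0, while Tcf4 was at 21.1 and 13.8. PA LP replicate 3 had Pacsin1 at 35.2, Cox6a2 at 38.3 and Tcf4 at 34.9. The part of plasmacytoid dendritic cells in the values of the 10 genes was not tested. The 10 macrophage and dendritic cell markers summed to 983 to 2746 in PA LP and 747 to 10995 in ND LP, with overlapping ranges, and their part in the diet values was not tested.

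Upstream of these genes, the type I ligands with a row were nearly silent. The type I genes Ifna15 and Ifna16 and the type III genes Ifnl2 and Ifnl3 have no row here, so their levels are not known. Of 16 type I interferon genes in the table, 15 were listed at 0 in all 12 libraries, and Ifnk, an interferon of epithelia, was at 3.51 FPKM in PA IEL replicate 1 only. The receptor chain Ifnar2 was present in every library, from 24.8 to 267 FPKM, with PA against ND log2 fold changes of -1.04 in IEL and 0.40 in LP. Ifnar1, the other chain, ranged from 0.37 to 20.4. Irf9 (3.07 to 105 FPKM) was detected in all 12 libraries, and Stat2 in all but PA LP replicate 2 and at 0.02 in PA IEL replicate 2. In PA LP against ND LP, Stat2 had a log2 fold change of -0.70 (SE 1.53) and Irf9 of -0.46 (SE 1.15). Without replicate 2 of PA milk in both layers these values turned to 0.94 (SE 1.01) and 0.85 (SE 0.77). The kinases Jak1 and Tyk2 had -1.50 (SE 1.75) and -1.06 (SE 1.36) in LP, and 0.77 (SE 0.70) and -1.96 (SE 1.21) without that replicate. In this list of 8 tested receptor and signalling genes, 2 lay above and 6 below 0 in each layer, and none had an unadjusted p under 0.05 in either. Without replicate 2 of PA milk, 6 of the 8 lay above 0 in LP and 4 in IEL, and none passed.

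Sensors that lead to interferon production showed no common direction, with 5 of 17 tested genes above 0 in LP and 7 of 17 in IEL (8 and 9 without replicate 2 of PA milk). Irf3, the transcription factor that starts interferon transcription, had a log2 fold change of 1.05 (SE 0.83) in IEL, which was 0.19 (SE 0.52) without that replicate, and -0.22 (SE 0.83) in LP. Tlr8, an endosomal receptor of RNA, stood at 10.7, 41.0 and 0 FPKM in PA LP but at 0 in all ND LP libraries (log2 fold change 2.98, unadjusted p = 0.0246, adjusted p = 0.979 by limma). Its highest value came from PA LP replicate 2, and without replicate 2 of PA milk in both layers Tlr8 was at 1.77 (SE 1.01, adjusted p = 0.760 by limma). Ikbke, a kinase that activates Irf3 and Irf7, gave 0, 0 and 2.08 for PA LP, while ND LP libraries gave 38.2, 27.3 and 6.88 (-3.83, unadjusted p = 0.00764, adjusted p = 0.979 by limma), and was at -3.56 without that replicate. Of 10 negative regulators of the pathway 2 lay above 0 in each layer, and of 4 genes for conjugation of Isg15, 3 did in IEL and 2 in LP, none of them past an unadjusted p of 0.05. Without replicate 2 of PA milk, 7 of the 10 negative regulators lay above 0 in LP and 4 in IEL, and 3 of the 4 conjugation genes did in LP and 2 in IEL.

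Among the close copies, 5 were tested. Mx2, the relative of Mx1, was 99.6, 0 and 36.2 FPKM for PA LP, 32.04, 38.8 and 2.43 for ND LP, and at most 8.08 in IEL, so unlike Mx1 it was present in 5 of 6 LP libraries. Its PA against ND log2 fold change in LP was -0.09 (SE 1.70), and 1.89 (SE 1.41) without replicate 2 of PA milk. Oas1g had 1.87 (SE 1.13) in LP and -2.39 (SE 1.13) in IEL, beside 0.39 (SE 0.82) and -2.13 (SE 0.82) without that replicate.

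The wider set of 44 other interferon-stimulated genes, all tested, was divided over the diets, with 21 above and 23 below 0 in LP and 15 above and 28 below in IEL. None passed, and 1 in each layer had an unadjusted p under 0.05. These were Lgals9, the galectin-9 gene, in IEL (271, 0.21 and 431 FPKM under PA milk, 690, 688 and 534 for ND, log2 fold change -3.60, unadjusted p = 0.0234) and Ms4a4c, a membrane protein gene, in LP (0.67, 0 and 0 against 6.95, 5.36 and 8.70, -2.73, unadjusted p = 0.0157). The value of Lgals9 rested in size on PA IEL replicate 2: without replicate 2 of PA milk in both layers it was -0.89 (SE 0.34, adjusted p = 1 by limma), while Ms4a4c was at -2.61. In that fit 34 of the 44 lay above 0 in LP, the number above 0 in IEL was 15 again, and none passed. By layer, 31 of the 44 lay below 0, with a median of -0.88. The 2 that passed, named after their values were seen, were Ifitm2 and Ifitm3, neighbours in a family that blocks virus entry at membranes. Ifitm2 was 186 to 570 FPKM over the 6 IEL libraries and 1002 to 3211 over the 6 LP libraries, a log2 fold change of -2.41 (SE 0.34, adjusted p = 0.00332 by limma). Ifitm3 was 107 to 357 in IEL and 295 to 6238 in LP, at -3.50 (SE 0.63, adjusted p = 0.0162 by limma). The call of Ifitm2 held under 19 of 21 alternatives, not without the filter (which tested all genes) or with a replicate block, and that of Ifitm3 under 17, also failing without ND LP replicate 2 and with limma-voom on scaled counts with sample quality weights. Without replicate 2 of PA milk in both layers, 7 of the 44 passed between the layers, all lower in IEL: Ifitm2 (-2.89), Ifitm3 (-4.496), Slfn2 (-2.27), Rtp4 (-2.62), Ifi44 (-3.44), Slfn5 (-2.83) and Ms4a4b (-3.39), where 826 genes of the whole table did. Ifi44 and Ms4a4b reached 1 FPKM in too few IEL libraries to pass the filter there. They entered the fit only through LP, where they were higher, so their calls are a description only. Unlike most of the 10 genes, Ifitm2 and Ifitm3 were detected in every library.

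**Figure D5:**
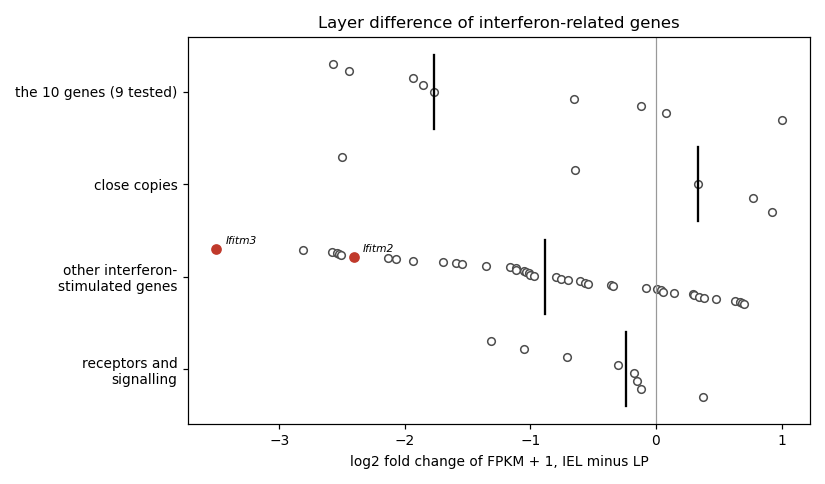
Log2 fold change of FPKM + 1, IEL minus LP over both diets, 1 point per tested gene in 4 lists (black lines are list medians; filled red points passed an adjusted p of 0.05). The medians are -1.77 for the 10 genes (9 tested), 0.33 for close copies, -0.88 for other interferon-stimulated genes and -0.24 for receptors and signalling, and Ifitm2 and Ifitm3 are the 2 that passed.

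Over the 12 libraries, the genes whose levels ranked most like the mean of the 10 were Arsa (Spearman rho 0.977), Tmem184b (0.965), Med13l (0.944), Ctps (0.930) and Taf4b (0.930), the highest of 12493 genes compared. None of them is in an interferon list used here, and all 5 were at 0.16 FPKM or less in PA IEL replicate 2 and PA LP replicate 2. The libraries share their depth and number of detected genes across all these points, so the likeness is a description.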

How the data were processed

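RNA of sorted ILC3s was sequenced in 12 libraries. According to the methods, the authors mapped reads onto mm10 using TopHat2 2.1.1, Bowtie2 2.2.8.0 and SAMtools 0.1.18 and computed FPKM per gene with Cufflinks 2.2.1 (the submitters' processing notes also name Cuffdiff 2.2.1). The second table the authors deposited holds counts divided by a size factor and rounded, which have the unit of a score and were used for depth and in 1 alternative. Low values lay at whole multiples of a step (91.1% to 100% within 0.05), and the step was taken as 1 read.

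Groups and replicate numbers came from the sample labels. The 10 genes and the gene lists were chosen with earlier results of these data known. The 12502 genes at 1 FPKM or more in 3 libraries or more entered 1 fit of limma 3.58.1 (R 4.3.3) with 4 group means, a pseudocount of 1 on the log2 scale and a trend of the variance with the mean. P-values were adjusted by Benjamini-Hochberg over all tested genes, with a threshold of 0.05. Exact two-sided permutation tests were run per gene and layer. The scripts were tested on simulated data. All members of the set were named. Of each pathway list, the core signalling genes, 4 close copies and up to 4 genes with the smallest unadjusted p under 0.05 per diet comparison were named. Some genes of these lists are not reported here, and they stay in the fits and counts. Alternatives were another pseudocount, filter, scaling, weighting or model, a replicate block, and libraries left out. The check for shared numbers gave correlations of -0.123 to 0.068 between same-numbered libraries, so numbers were not taken to pair samples. Coordinates are those of GENCODE vM21 and promoters those of RefSeq. Python 3.11.15, numpy 2.4.6, pandas 2.3.3, scipy 1.17.1 and matplotlib 3.10.9 were used.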

Additional observations from a re-analysis of the deposited data

How the results depend on the processing

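The precision is set by the spread between 3 libraries of a group, and a level under 3 reads, 0.0514 to 0.556 FPKM depending on gene and library, has no order at this depth. Under other settings, 350 of 378 values of the 9 genes were counted as unchanged, and 26 were counted as reversed. Unchanged meant the same direction and the same side of the threshold. For the 36 log2 ratios of the group means of FPKM it meant only a move under 1 SD, with direction not checked. With 1 library left out, 40 of 432 reversed. None of these reversed values was past the threshold, and the cause of each was not tested beyond the zeros of PA milk replicate 2. All values that follow are log2 fold changes unless they are counts of genes.

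Genes called in LP numbered 0 in the fit reported and 2 without a filter, 3 with sample quality weights, 0 to 8 when each library was left out (8 without PA LP replicate 3); in IEL they were 0 to 1 and, for the difference of the diet effect, 1 without a filter. Calls between the layers, 110 in the fit reported, were 58 with a pseudocount of 0.1, 19 without a filter, 982 with sample quality weights, 373 with limma-voom on scaled counts with sample quality weights, 826 without PA milk replicate 2 in both layers, and 37 to 521 with each library left out. With a replicate block, calls were 3 in LP, 0 in IEL and 29 between the layers, and the medians of the 9 genes were as reported; every same-numbered pair correlated between -0.123 and 0.068, so the block rests on a shared number only. The longer response element was in 3 genes, the core in 5.

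Sample quality weights turned Isg15 to 0.17 and Oasl2 to 0.12 in IEL, Ifit2 to 1.64, Isg15 to 0.75 and Oas1a to 0.83 in LP, Ifit3 to 0.72 and Usp18 to 0.74 in the difference, and Usp18 to -0.21 between layers. Limma-voom with the same kind of weights, on the scaled counts, gave 0.27 for Isg15 and 0.0982 for Oasl2 in IEL, 4.10 for Ifit2, 0.75 for Isg15 and 0.61 for Oas1a in LP, and 2.79 for Usp18 in the difference. A pseudocount of 0.1 gave -0.14 for Ifit3 and -0.39 for Oasl2 in LP, and leukocyte scaling 0.39 for Ifit2 and 0.0939 for Oas1a in LP. Leukocyte scaling moved the median of all genes in LP from -0.36 to -0.12 and that of the difference from -0.03 to 0.32; upper quartile scaling moved it to -0.54 in IEL and -0.59 in LP. Without PA milk replicate 2 in both layers, LP values were 1.597 for Ifit2, 1.73 for Isg15 and 1.16 for Oas1a, the differences 0.54 for Ifit3 and 1.92 for Usp18, and the layer values -0.14 for Oas1a, 0.24 for Irf7 and -0.40 for Usp18.

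With each library left out in turn, Ifit3 in IEL ran from -0.0170 to 1.40. In LP the ranges were -1.35 to 2.62 for Ifit1, -1.77 to 1.597 for Ifit2, -0.52 to 1.94 for Ifit3, -2.83 to 1.73 for Isg15, -1.07 to 1.16 for Oas1a, -0.47 to 2.46 for Oasl2 and -1.34 to 2.08 for Usp18. For the difference they were -0.0383 to 3.93 for Ifit1, -0.18 to 3.19 for Ifit2, -1.45 to 1.01 for Ifit3, -1.07 to 3.57 for Isg15 and -2.53 to 0.89 for Usp18, with the median of the 9 genes from 0.36 to 3.46. Between the layers they were -0.60 to 0.54 for Oas1a, -1.07 to 0.52 for Oasl2 and -1.25 to 0.42 for Irf7.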
